A study of Mus musculus with 3 samples.

Results

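The 8 genes studied here act in G protein and small GTPase signalling and were measured in microglia of the mouse spinal cord. They are 5 regulators of G protein signalling (Rgs1, Rgs2, Rgs10, Rgs18 and Rgs19) and 3 small GTPases (Rhob, Gem and Rrad). They were found by symbol and are 8 of the 27998 genes of the deposited matrix, and they had been chosen from measured levels in these same cells, so every difference between libraries below is a description. The matrix holds 7522 cells of 3 libraries, 1 from naive mice, 1 taken 24 h and 1 taken 48 h after the sciatic nerve was cut. All groups were young adult C57BL/6 mice heterozygous for Cx3cr1-creER-yfp, in which YFP follows the Cx3cr1 gene and 1 copy of that gene is replaced, and YFP (+) cells were sorted from the lumbar cord. According to the methods, animals of a group were pooled, so each time point is 1 library. The libraries are told apart only by a barcode suffix of 1, 2 or 3, and which suffix stands for which time point was not given in what was read here. Libraries 1, 2 and 3 are therefore named by suffix, their time points are not known, and no test was made between them. The time point, the pool of animals and the handling of a library cannot be told apart.

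G protein-coupled receptors act through heterotrimeric G proteins, whose alpha subunit is active while it holds GTP. RGS proteins speed up GTP hydrolysis by alpha subunits and so shorten the signal, and microglia use such receptors to sense nucleotides and chemokines. GTPases of the family of Rhob control the actin cytoskeleton, and Rhob is unusual among them in being made rapidly after a stimulus and turned over fast. Gem and Rrad belong to the RGK GTPases, which inhibit voltage-gated calcium channels.

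Library 1 held 609 cells with a median of 2218 unique molecular identifiers (UMIs, each counting 1 captured transcript) per cell. Libraries 2 and 3 held 3591 and 3322 cells with medians of 5952 and 5742. Because library 1 was shallow, shares of cells are given after every cell was thinned at random to 2000 UMIs, which left 408, 3569 and 3284 cells and dropped 201, 22 and 38. Levels are counts per 1000000 UMIs of the library (CPM), and every interval is an exact 95% interval that covers counting error only. The cells were microglia by their markers: in each library, 100% of cells held UMIs of at least 3 of 9 microglia genes, whose summed level was 21473 to 26082 CPM. Lists of 12 other cell types summed to 0 to 78.9 CPM per library, the highest being the platelet list, of which only Gp9 was found in library 1. Between libraries, 19 cell barcodes were shared by libraries 3 and 2, 3 by libraries 3 and 1, and 5 by libraries 2 and 1. Library 3 stood apart in 20 early genes outside the studied group, which together gave a mean of 59.2 UMIs per thinned cell against 5.60 in library 1 and 6.62 in library 2. Its heat shock genes also summed higher, at 6.36 against 1.77 and 3.38 UMIs, and the median mitochondrial share was 0.945%, 1.52% and 1.20% in libraries 1, 2 and 3. The part of these sums in the results below was not tested.

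Rgs1, Rgs2 and Rgs18 are neighbours on 1 chromosome. On the GRCm38 assembly (GENCODE M21; the labels name mm10), Rgs2 (ENSMUSG00000026360) lies at chr1:143999338-144004161, Rgs1 (ENSMUSG00000026358) at chr1:144242296-144249242 and Rgs18 (ENSMUSG00000026357) at chr1:144752683-144775435. With Rgs13 and Rgs21 they are the 5 protein-coding genes of a stretch of 776 kb, all on the minus strand. Neighbourhood did not go with a shared level: Rgs13 and Rgs21 had 0 UMIs in all 3 libraries, and Rgs18 had 1. The others are scattered, with Rgs10 (ENSMUSG00000030844) at chr7:128373621-128418758, Rgs19 (ENSMUSG00000002458) at chr2:181688419-181693977 and Rhob (ENSMUSG00000054364) at chr12:8497661-8500009, all on the minus strand. Gem (ENSMUSG00000028214) lies at chr4:11704457-11714752 on the plus strand and Rrad (ENSMUSG00000031880) at chr8:104628070-104631327 on the minus strand.

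RefSeq promoter windows on GRCm38.p6 matched 4 of the 8 genes (Rgs2, Rgs10, Rgs19 and Rhob), not Rgs1, Rgs18, Gem or Rrad. The bases just upstream of the GENCODE gene model are shown for Rgs2 and Rhob, which were higher in library 3, and for Rgs19, which was not. All 3 read 5′ to 3′ on the minus strand. Capitals mark the CCAAT box (CCAAT or ATTGG), the short cAMP response string TGACG (or CGTCA) and the GC box (GGGCGG or CCGCCC).
Rgs2, chr1:144004162-144004399: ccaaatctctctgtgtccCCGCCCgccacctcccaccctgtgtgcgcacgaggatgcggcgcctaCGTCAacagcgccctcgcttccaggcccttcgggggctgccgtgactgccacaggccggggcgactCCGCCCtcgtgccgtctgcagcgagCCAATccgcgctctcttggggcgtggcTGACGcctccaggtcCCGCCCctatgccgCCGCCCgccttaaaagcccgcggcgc
Rhob, chr12:8500010-8500259: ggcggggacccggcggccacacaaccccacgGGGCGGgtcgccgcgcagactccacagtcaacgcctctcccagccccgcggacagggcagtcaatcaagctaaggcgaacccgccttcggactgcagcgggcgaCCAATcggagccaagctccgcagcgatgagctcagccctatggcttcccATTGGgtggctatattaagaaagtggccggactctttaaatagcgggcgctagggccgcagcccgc
Rgs19, chr2:181693978-181694227: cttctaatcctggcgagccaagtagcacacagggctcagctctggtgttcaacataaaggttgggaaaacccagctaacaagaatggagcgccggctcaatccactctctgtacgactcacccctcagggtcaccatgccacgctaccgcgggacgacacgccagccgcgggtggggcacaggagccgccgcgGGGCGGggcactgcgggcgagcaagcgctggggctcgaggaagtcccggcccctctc
The Rgs2 sequence held 1 CCAAT box, 2 TGACG strings and 4 GC boxes. The Rhob sequence held 2 CCAAT boxes, 115 and 66 bases before its RefSeq start, no TGACG string and 1 GC box. The Rgs19 sequence held 1 GC box and neither of the others. These strings are common: of 32851 windows of 250 bases, 33.8% held a CCAAT box, 17.8% TGACG and 32.7% a GC box, on either strand. The full cAMP response element TGACGTCA (1.55% of windows), which contains TGACG, the AP-1 string TGANTCA (6.75%), the heat shock string GAANNTTC (6.69%) and the CArG box (1.47%) were found in none of the windows of the 4 genes.

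Rgs1, a regulator of chemokine receptor signalling in leukocytes, differed most among the RGS genes. Its level was 58.8 CPM (46.6 to 73.3, from 79 UMIs), 60.2 CPM (57.2 to 63.4) and 402 CPM (393 to 411) in libraries 1, 2 and 3. Libraries 1 and 2 overlapped and library 3 lay far above both. The ratio of library 3 to library 2 was 6.67 (6.31 to 7.06) and that of library 3 to library 1 was 6.83 (5.47 to 8.63). At equal depth, Rgs1 was found in 11.0% (8.16 to 14.5), 10.4% (9.39 to 11.4) and 47.0% (45.3 to 48.8) of cells. Without thinning these shares were 10.7%, 28.0% and 76.4%, so the apparent step between libraries 1 and 2 went with depth.

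Rgs2, which acts mainly on Gq, was present in most cells of every library. It measured 711 CPM (667 to 758), 524 CPM (515 to 534) and 1327 CPM (1311 to 1343) in libraries 1, 2 and 3. The intervals of the 3 libraries were apart, with library 2 lowest. The ratios were 2.53 (2.48 to 2.59) for library 3 to library 2, 1.87 (1.75 to 1.99) for library 3 to library 1 and 0.738 (0.691 to 0.789) for library 2 to library 1. The share of thinned cells with Rgs2 followed the same order, at 77.5%, 64.3% and 90.6%.

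Rgs10, an RGS protein that microglia hold in quantity and that acts on Gi, went slightly the other way. It measured 1288 CPM (1228 to 1350), 1105 CPM (1092 to 1119) and 981 CPM (967 to 995) in libraries 1, 2 and 3, with intervals apart and library 3 lowest. The ratio of library 3 to library 2 was 0.887 (0.871 to 0.904), and thinned cells with Rgs10 made up 93.1%, 89.7% and 86.2%. Rgs19, which binds Gi alpha subunits, measured 177 CPM (155 to 201), 162 CPM (157 to 167) and 160 CPM (155 to 166). Its intervals overlapped between all libraries, and the ratio of library 3 to library 2 was 0.988 (0.943 to 1.04).

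Rgs18, known from platelets and their precursors, gave 1 UMI in all. It had 0 UMIs in libraries 1 and 3, which allows a share of up to 0.493% and 0.0903% of cells with a UMI, and 1 UMI in library 2. The limit is on cells with a captured UMI at these depths, not on cells with the transcript. The single cell with this UMI had 5109 UMIs in all, 123 of them from microglia markers, 1 from the platelet list and 0 from the platelet gene Pf4.

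Rhob, a GTPase of endosomes, followed Rgs2 in the order of libraries. In libraries 1, 2 and 3 it measured 657 CPM (615 to 702), 432 CPM (424 to 440) and 1392 CPM (1375 to 1408). Library 2 was again lowest, with a ratio to library 1 of 0.657 (0.613 to 0.705). The ratio of library 3 was 3.22 (3.15 to 3.29) to library 2 and 2.12 (1.98 to 2.27) to library 1. Thinned cells with Rhob made up 71.1%, 58.2% and 90.9%.

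Gem had the largest ratio of the group and, after Rgs18, the fewest cells. Its UMIs numbered 1, 128 and 1166 in libraries 1, 2 and 3, or 0.745 CPM (0.0189 to 4.15), 5.31 CPM (4.43 to 6.32) and 59.0 CPM (55.6 to 62.5). Library 3 was 11.1 times library 2 (9.24 to 13.4). Against library 1 the ratio was 79.2 with an interval of 14.2 to 3131, as it rests on 1 UMI. Even in library 3 only 8.37% of thinned cells held Gem (7.45 to 9.37), against 0.245% and 0.897% in libraries 1 and 2. Rrad, its relative, measured 23.8 CPM (16.3 to 33.6), 26.1 CPM (24.1 to 28.2) and 54.8 CPM (51.6 to 58.1). Libraries 1 and 2 overlapped, library 3 was 2.10 times library 2 (1.90 to 2.32), and thinned cells with Rrad made up 4.90%, 4.93% and 10.5%. No cell type known to lack these genes was present in number, so the share of cells that free RNA alone would give was not measured.

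**Figure D1:**
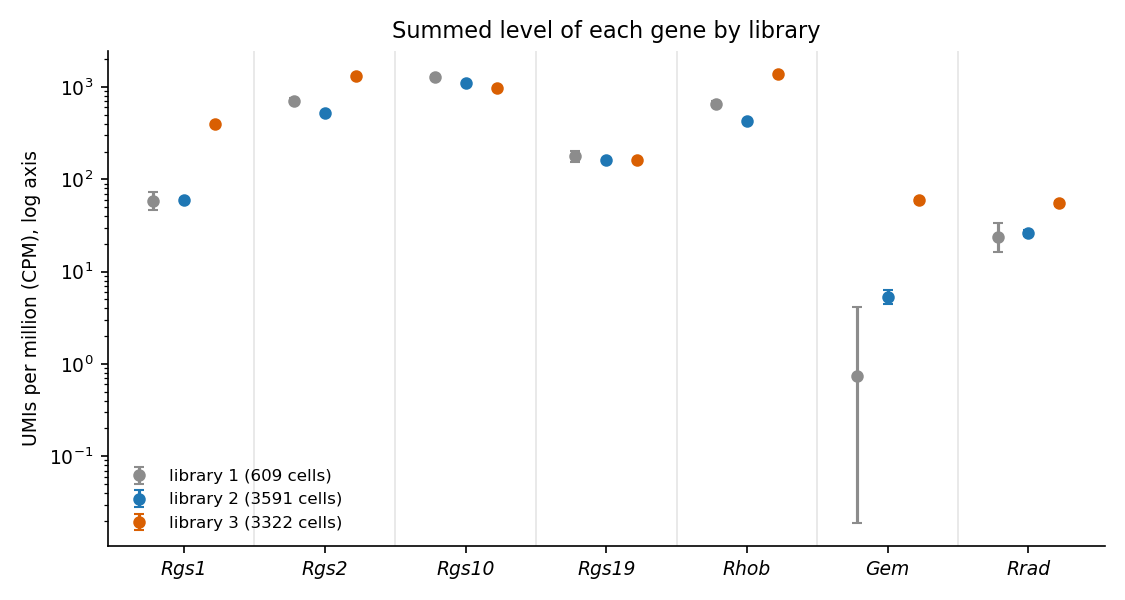
Level of 7 genes in CPM (log axis) in libraries 1 (grey), 2 (blue) and 3 (orange); points are sums over all cells of a library and bars are exact 95% Poisson intervals. Rgs1, Rgs2, Rhob, Gem and Rrad were highest in library 3, Rgs10 was lowest there, at 981, and Rgs19 lay between 160 and 177 throughout; Rgs18, with 1 UMI in all, is not drawn.

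**Figure D2:**
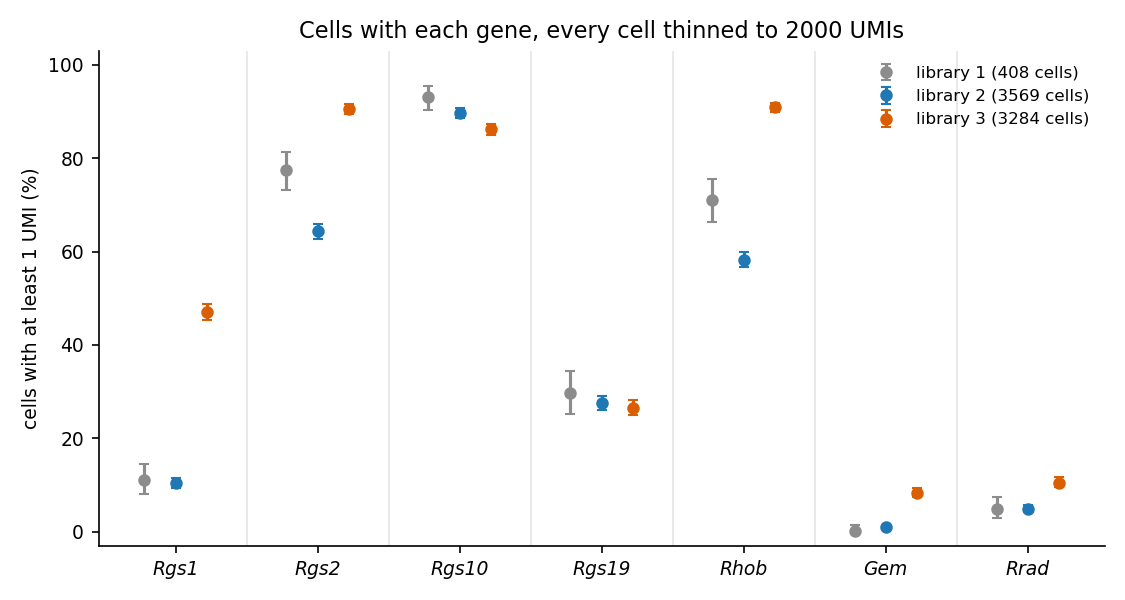
Percent of cells with at least 1 UMI of each gene after every cell was thinned to 2000 UMIs, by library; bars are exact 95% binomial intervals. Rgs1 stood at 47.0% in library 3 against 11.0% and 10.4%, whereas Gem reached only 8.37%.

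Set against all genes, 7 of the 8 had a mean of at least 10 CPM over the libraries and so entered a count among 8130 genes, Rgs18 being left out. With 1 added to each CPM, 5 of the 7 (Rgs1, Rgs2, Rhob, Gem and Rrad) were at least 2-fold higher in library 3 than in library 2, where 1.32% of all genes were, and none was 2-fold lower, where 1.92% were. Ranked by this ratio, Gem stood 16th, Rgs1 27th, Rhob 53rd, Rgs2 72nd and Rrad 102nd of 8130 genes. Gem, at 0.745 and 5.31 CPM in libraries 1 and 2, reached the mean of 10 CPM only through library 3. Its call and rank were thus in part set by that filter. Against library 1, 4 were 2-fold higher (Rgs1, Rhob, Gem and Rrad; 3.62% of all genes) and none 2-fold lower (5.01%). Between libraries 2 and 1, Gem alone was 2-fold higher (4.55%) and none was 2-fold lower (3.7%). The genes were picked on these levels, and the comparisons share libraries, so nothing about the group is read from these counts. The median log2 ratio over all genes was close to 0, at -0.02, -0.09 and -0.09 for library 3 to 2, 3 to 1 and 2 to 1.

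Other genes of the pathway were counted in the same way between libraries 3 and 2. Of 15 other Rgs genes, 2 passed the 10 CPM filter. Rgs3, which acts on Gi and Gq, was past 2-fold in library 3, at 43.2, 41.2 and 138 CPM in libraries 1, 2 and 3. Rgs14, a scaffold that also binds Ras and Rap, measured 14.9, 7.51 and 8.60 CPM. Of 20 G protein subunit genes, 14 were counted and none was 2-fold apart between libraries 3 and 2. Over all genes 1.32% were 2-fold higher and 1.92% lower, so 0 of 14 is near that share and is not read as a result. The extremes were Gna13 (61.4 and 85.8 CPM in libraries 2 and 3), an alpha subunit, and the gamma subunit Gng12 (50.4 and 34.7). The median log2 ratio of the 14 genes was 0.01. Of 18 receptor genes 15 were counted, with a median log2 ratio of 0.27. The receptor with the lowest ratio was Lpar6, a lysophosphatidic acid receptor, at 263 and 218 CPM in libraries 2 and 3 and 519 CPM in library 1. Against library 1, 2 of the 15 receptor genes were 2-fold higher in library 3 and 3 were lower, Lpar6 among the latter. Of all genes, 3.62% and 5.01% were. In that comparison 1 of the 14 subunit genes was 2-fold lower and 0 were higher. Between libraries 2 and 1, 3 receptor genes were 2-fold lower (3.7% of all genes) and 0 higher (4.55%).

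The relatives of Rhob, itself picked on its level, were counted too. Of 15 genes of its family and their partners 13 were counted, none was 2-fold apart between libraries 3 and 2, and the median log2 ratio was -0.13. Over all genes 1.32% were 2-fold higher and 1.92% lower, so 0 of 13 is near that share. The extremes were Rhoh, a GTPase of blood cells that lacks GTP hydrolysis (375 and 508 CPM in libraries 2 and 3), and Arhgdib, which holds such GTPases in the cytosol (599 and 429 CPM). Of the other RGK genes, Rem1 had 1 UMI in library 1, 1 in library 2 and 0 in library 3, and Rem2 had 2 UMIs in library 3 alone, so neither was counted. Of 20 early genes 18 were counted and all 18 were at least 2-fold higher in library 3 than in library 2. They ranged from Dusp6, a phosphatase of ERK (266 and 811 CPM), to Dusp1, a phosphatase of p38 and JNK (56.4 and 2013 CPM). Among heat shock genes 3 of 7 counted were 2-fold higher, with Hspb1 (0.581 and 59.0 CPM) at the top and Hspe1 (283 and 280 CPM) at the bottom. Among 10 proliferation genes 7 were 2-fold lower, with Birc5 (117 and 1.72 CPM) at the bottom, and Pcna, at the top of the list (77.8 and 53.3 CPM), was not past 2-fold. Some genes of these lists, Hspb1 and Birc5 among them, passed the 10 CPM filter only through the library where they were highest.

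Counts of a gene over equally deep cells show whether a few cells or most cells carried it. The variance divided by the mean is 1 where counts scatter at random, and over the 3161 genes with a mean of at least 0.1 UMI in library 3 its median was 1.01. There it was 1.74 for Rgs1, 1.52 for Gem, 1.34 for Rhob, 1.32 for Rgs2 and 1.14 for Rrad, against 1.03 for Rgs10 and 1.02 for Rgs19. The genes that were higher in library 3 had the higher values there, but such spread was not limited to library 3. At an equal relative spread this measure rises with the mean, so its values in libraries 2 and 3 are not on one scale. In library 2, where Rgs2 and Rhob were lowest, they gave 1.08 and 1.10. These values lay above those of 95.7% and 96.5% of genes with a mean of at least 0.1 UMI there. The value of Rrad in library 3 rests in part on 1 cell with 6 UMIs, around a mean of 0.115. Rgs1 was at 0 in 53.0% of cells where its mean of 0.805 UMIs would give 44.7% under random scatter, and at 5 UMIs or more in 1.71% where 0.145% would be expected.

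The distributions of Rgs1, Rgs2 and Rhob all lay higher in library 3. Cells without Rgs1 made up 89.0%, 89.6% and 53.0% in libraries 1, 2 and 3. Cells without Rgs2 made up 22.5%, 35.7% and 9.44% in libraries 1, 2 and 3, and cells with at least 5 of its UMIs 2.21%, 0.869% and 14.6%. Cells without Rhob made up 28.9%, 41.8% and 9.14%, and cells with at least 5 UMIs 1.72%, 0.392% and 17.3%. The uneven spread of Rgs1 was present in library 2 as well, at a variance over mean of 1.33 around a mean of 0.124 UMIs. Its variance beyond counting noise, divided by the squared mean, was 2.69 in library 2 and 0.916 in library 3. Relative to the mean, the cells of library 3 were thus the more even for Rgs1. Its value in library 2 rests in part on 1 cell with 7 UMIs. In libraries 2 and 3 the same measure was 0.079 and 0.121 for Rgs2 and 0.104 and 0.123 for Rhob, the other direction.

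**Figure D3:**
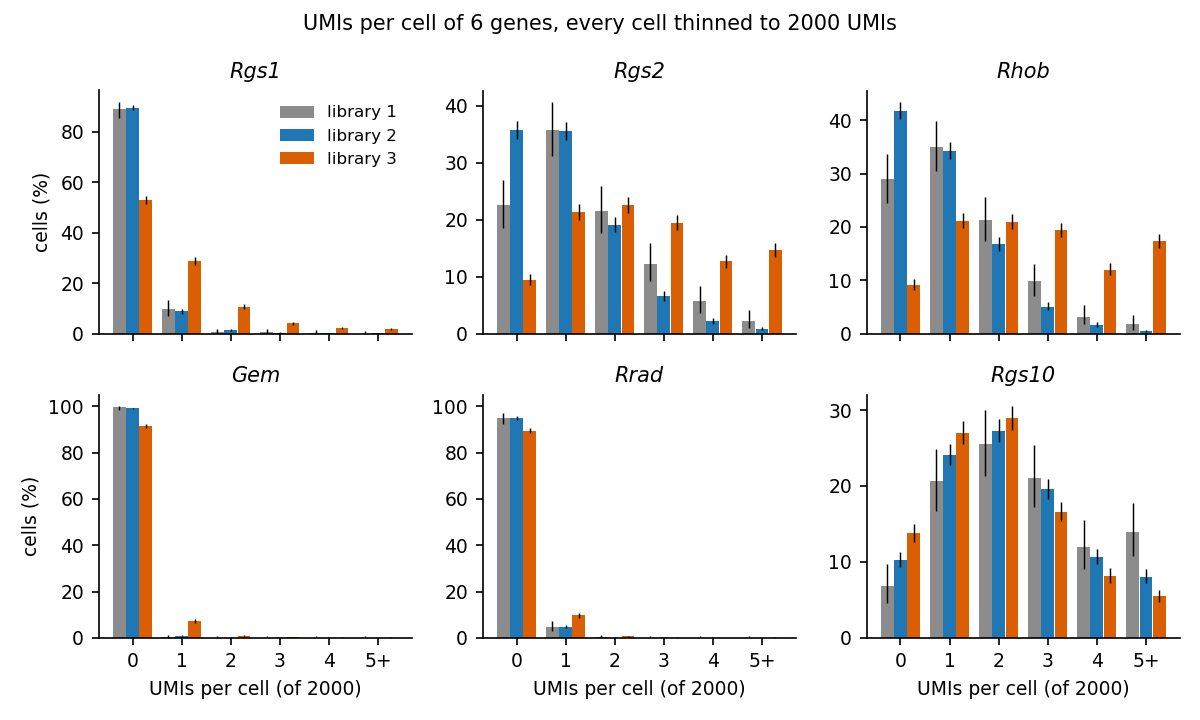
Percent of cells (vertical axes, with their own scale in each panel) with 0 to 4 or at least 5 UMIs of 6 genes, every cell thinned to 2000 UMIs, for libraries 1 (grey), 2 (blue) and 3 (orange) with exact 95% binomial intervals. Fewer cells were at 0 in library 3 than in library 2 for Rgs1 (53.0% against 89.6%), Rgs2 (9.44% against 35.7%) and Rhob (9.14% against 41.8%).

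A cell held a median of 3 of the 8 genes in libraries 1 and 2 and of 4 in library 3. All of Rgs1, Rgs2 and Rhob were found together in 6.13%, 4.17% and 39.3% of cells, close to the product of their single shares (6.07%, 3.88% and 38.7%). Correlations between pairs across cells were accordingly weak. Over the 21 pairs of 7 genes, Spearman's correlation ran from -0.021 to 0.103 in the 3284 cells of library 3 and from -0.038 to 0.046 in the 3569 cells of library 2. The highest pair in library 3 was Rgs2 with Rhob. The cells of a library share its preparation and these counts are sparse, so such values are no finding.

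Correlations with the sum of the other early genes were higher for some of the genes. This sum had a mean of 59.2 UMIs per thinned cell in library 3, and sparse counts lower a correlation. Its values therefore cannot be set beside those of the pairs as a closer likeness. The sum also went with depth before thinning in library 3, at a correlation of 0.220. In library 3, the correlation with the summed UMIs of the 20 early genes was 0.337 for Rhob, 0.207 for Rgs2, 0.201 for Rgs1 and 0.085 for Gem. It was 0.023 for Rrad, 0.013 for Rgs19 and -0.013 for Rgs10. In library 2, where the early sum was low, the values were 0.059 for Rhob, 0.034 for Rgs2 and 0.062 for Rgs1. With the heat shock sum the 7 genes of library 3 lay between -0.035 (Rgs19) and 0.034 (Rhob).

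Among 1423 genes found in at least 20% of the cells of library 3, those most like Rhob were Jun (correlation 0.265), Junb (0.250) and Fos (0.240), all subunits of AP-1. In library 2 the same pairs gave 0.017, 0.021 and 0.048. Jun, Junb and Fos measured 4949, 3072 and 3932 CPM in library 3 and 610, 476 and 178 CPM in library 2. Counting noise lowers a correlation more where counts are sparse, so the values of libraries 2 and 3 are not on one scale. Rgs1 was most like Fos (0.164), Jun (0.135) and Junb (0.131), and Rgs2 most like Jun (0.173), Fos (0.171) and Btg2 (0.147), an antiproliferative early gene. Gem, with a mean of 0.104 UMIs per thinned cell, came nearest to Junb (0.079), Btg2 (0.078) and the chemokine Ccl3 (0.068). These values are too low in counts this sparse to be read, and the same pairs gave -0.011, 0.024 and 0.005 in library 2. For Rgs10 the nearest were the purinergic receptor P2ry12 (0.064), Snx6 (0.062) and Pmp22 (0.059). For Rrad they were Vamp8 (0.066), Atp5a1 (0.064) and Cebpg (0.056), and for Rgs19 Scaf11 (0.048), Ivns1abp (0.048) and Macf1 (0.047), values too low in counts this sparse to be read.

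**Figure D4:**
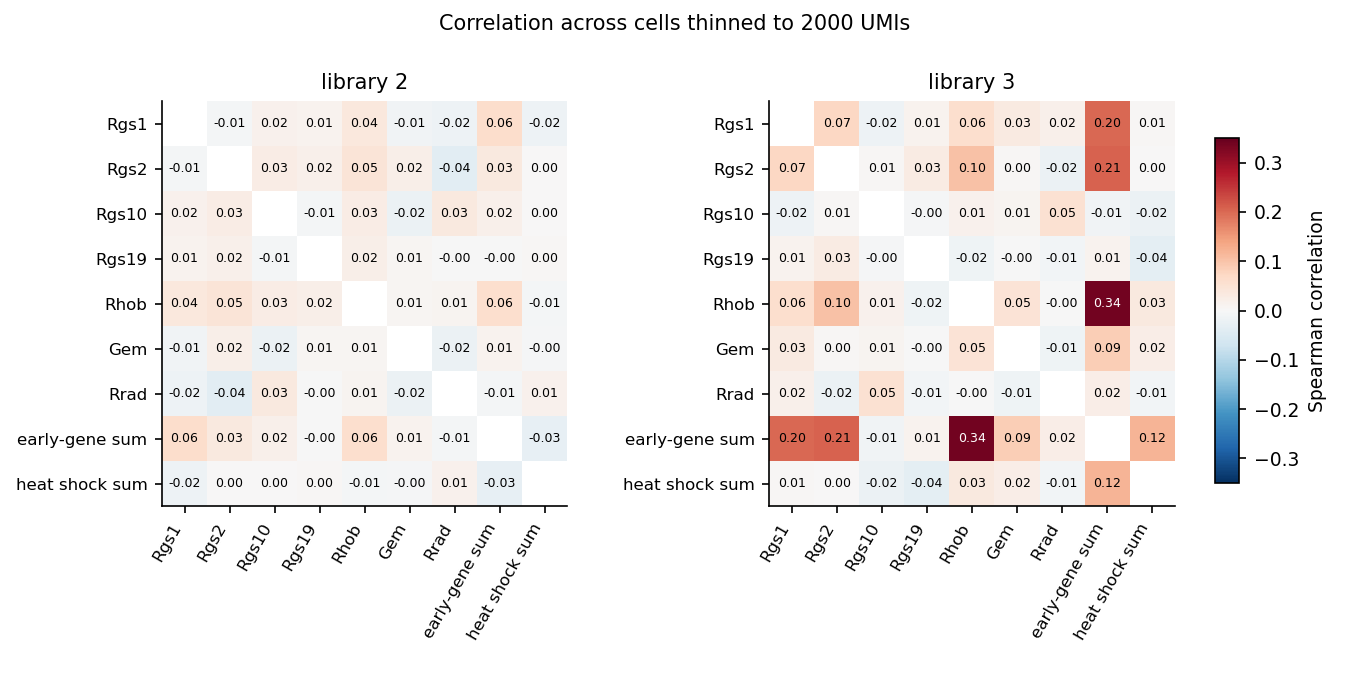
Spearman correlation across cells thinned to 2000 UMIs between 7 genes, the sum of 20 early genes and the sum of 8 heat shock genes, in library 2 (left) and library 3 (right); colour runs from -0.35 (blue) to 0.35 (red). Pairs within the group lay between -0.021 and 0.103 in library 3, and Rhob had the highest value with the early-gene sum, 0.337.

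The same relation can be read as levels. In library 3 the 1094 cells with the most early-gene UMIs (mean 84.5) were set beside the 1094 with the fewest (mean 35.5), and their median depths before thinning were 5996 and 5023 UMIs. Gem was 2.57 times higher in the former (1.87 to 3.59), Rgs1 2.27 times (2.05 to 2.51), Rhob 1.81 times (1.72 to 1.92) and Rgs2 1.47 times (1.40 to 1.55). In UMIs per cell, Rgs1 measured 1.13 against 0.498 and Rhob 3.44 against 1.90. For Rrad the ratio was 1.19 (0.923 to 1.54), for Rgs19 1.05 (0.904 to 1.23) and for Rgs10 0.988 (0.930 to 1.05), with intervals that include 1. Rrad thus was higher in library 3 as a whole, yet its difference between these cells lay within counting error.

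In library 2 the same split put 1189 cells with a mean of 10.3 early-gene UMIs beside 1189 with 3.44, at median depths of 6011 and 6028. Rgs1 was 1.68 times higher in the former (1.33 to 2.13) and Rhob 1.16 times (1.06 to 1.26). Rgs2 gave 1.07 (0.992 to 1.16), and the intervals of the other 4 genes included 1. In library 1, where Rgs1 was as low as in library 2, the 136 cells with the most early-gene UMIs gave a ratio of 1.13 for Rgs1 to the 136 with the fewest (0.542 to 2.36), which rests on 18 and 16 UMIs.

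**Figure D5:**
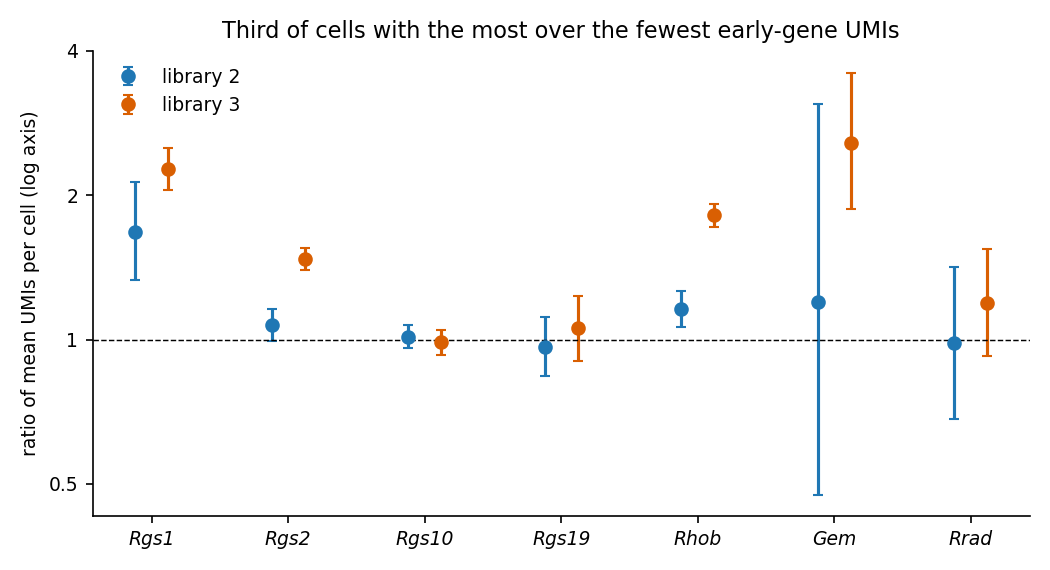
Ratio of mean UMIs per cell between cells with the most and with the fewest early-gene UMIs (1094 cells each in library 3, orange; 1189 each in library 2, blue), on a log axis with exact 95% intervals; the dashed line marks 1. Rgs1, Rgs2, Rhob and Gem lay above 1 in library 3, at 1.47 to 2.57, and Rgs1 and Rhob also in library 2.

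Cells with at least 2 UMIs, summed over 10 proliferation genes, were found mainly in library 2. There, the ratio of Rgs1 in 1110 such cells to that in 1210 cells with no UMI of these genes was 0.762 (0.595 to 0.974). Rgs1 varied between cells of library 2 beyond counting error, at a variance over mean of 1.33. Its interval is thus too narrow, and no difference is read from it. The 1110 cells were deeper before thinning, at a median of 7131 UMIs against 5624. The ratio was 0.872 (0.804 to 0.946) for Rgs2 and 0.855 (0.783 to 0.932) for Rhob. Rgs10, at 0.973 (0.921 to 1.03), and Rgs19, at 0.988 (0.852 to 1.15), did not differ beyond counting error, nor did Gem or Rrad, which had few UMIs. In library 3, 84 cells held at least 2 such UMIs, and of the 7 genes only Rgs2 had an interval below 1, at 0.826 (0.710 to 0.956).

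Depth of the cell also went with some levels. Cells of library 3 were ranked by total UMIs and the deepest 1107 (median 7529) set beside the shallowest 1107 (median 4274). Gem was 1.58 times higher in CPM in the deep cells (1.33 to 1.88), and the other 6 genes lay between 0.862 for Rgs19 and 1.13 for Rgs1. In library 2, with 1197 cells each at medians of 9051 and 4415, Gem was 1.84 times higher in the deep cells (1.07 to 3.33), Rgs2 lower, at 0.862 (0.824 to 0.902), and Rhob lower, at 0.796 (0.757 to 0.836). The direction for Rhob was opposite in library 3, at 1.11 (1.07 to 1.14). In library 1, with 203 cells each at medians of 2878 and 1590, Rgs10 was 1.24 times higher in the deep cells (1.09 to 1.42). It measured 1384 CPM there against 1115 CPM in the shallow cells, and the intervals of the other genes included 1. The direction for Rgs10 was opposite in library 2, at 0.922 (0.893 to 0.951), and in library 3, at 0.956 (0.922 to 0.991). The part of depth in the order of libraries for Rgs10 was not tested. The part of depth in the differences by early-gene sum and by proliferation genes was not tested beyond the thinning to equal counts.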

How the data were processed

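YFP (+) cells of 3 groups were profiled with a droplet-based 3′ kit, which captures transcript ends, so levels are compared between libraries and not between genes. The authors deposited raw UMI counts in 1 matrix that joins the libraries. The submitters' processing notes name Cell Ranger 2.1.1 and mm10. How cells were called, and whether the libraries were brought to equal read depth on joining, is not given in the sources used here.

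UMIs were summed by barcode suffix and scaled to CPM. Ratios have exact conditional intervals, sums exact Poisson intervals and shares Clopper-Pearson intervals (95%). These cover counting error only. In splits of cells they are too narrow for genes that varied between cells beyond that. A count of 0 was given a limit of 3 counts. Calls used log2(CPM + 1), a 2-fold difference and genes with a mean of at least 10 CPM, and a fold on that scale understates the change of low genes. No cell was filtered out and no doublets were removed here, though the methods state doublet exclusion in the sort. Thinning drew 2000 UMIs per cell without replacement (seed 1). Spread, Spearman correlations and splits by early-gene or proliferation UMIs used thinned cells, and the split by depth used all cells. No test between libraries was possible, and none was made.

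The genes studied and the lists were chosen with earlier results of these data known. Genes named in the text are the 8 themselves, the 3 most correlated with each in library 3 among genes found in at least 20% of its cells, the highest and lowest ratio of library 3 to library 2 in each list, and every member of a list under 5 genes. Some results under this rule are not reported here. Positions are those of GENCODE M21, and promoter sequences those of RefSeq. The thinning, ratio and correlation steps were tested on simulated data. Alternatives were other depths, seeds, pseudocounts, scalings, floors, folds and cell filters, and, added after seeing the data, leaving out cells whose barcode occurs in more than 1 library. The scripts ran in Python 3.11.15 with pandas 2.3.3, matplotlib 3.10.9, scipy 1.17.1 and numpy 2.4.6.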

Additional observations from a re-analysis of the deposited data

How the results depend on the processing

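No 2-fold difference in CPM changed direction under the alternatives that recomputed it, and direction was checked for these ratios only. The order of libraries in shares of cells did change with depth. Rgs2 was found in 77.5% and 64.3% of thinned cells of libraries 1 and 2, and in 72.2% and 94.2% of cells without thinning. Of 808 recomputed values, 650 stayed within their interval or within 1.5 times the count, and 158 did not; 80 of these were shares of cells, most of them at another depth or with at least 2 UMIs asked for. With 10 added to each CPM, Gem was no longer past 2-fold between libraries 2 and 1 (0 genes, beside 2.80% of all genes). Rrad was no longer past it between library 3 and library 2 (4 genes in place of 5, log2 ratio 0.85). The same held against library 1 (3 in place of 4, log2 ratio 0.94). Of all genes, 0.996% and 1.87% were higher in these 2 comparisons. At 3-fold, 3 genes were higher in library 3 than in library 2 (0.750% of all genes) and 2 than in library 1 (1.19%). At a floor of 50 CPM, which leaves out Gem and Rrad, the counts were again 3 and 2, and 0 between libraries 2 and 1. Of all genes above that floor, 2.05%, 3.86% and 3.70% were higher in these comparisons. At 1.5-fold, 1 gene (Rhob) of the 7 was lower in library 2 than in library 1, where 16.2% of all genes were. Counts of genes whose share intervals did not overlap depended on depth. The matching counts over all genes were not made, so nothing about the group is read from them. At 2000 UMIs, library 3 lay above library 2 for 5 genes and below it for 1 (Rgs10). The latter count was 2 at 1000 UMIs and 0 without thinning. Library 3 lay below library 1 for 1 gene (Rgs10), and for 0 at 4000 UMIs or without thinning. It lay above library 1 for 5 genes, and for 3 at 4000 UMIs. Library 2 lay below library 1 for 2 genes (Rgs2 and Rhob), for 1 with another random seed, and for 0 at 4000 UMIs or without thinning, where it lay above for 7. Correlations rose with depth: at 4000 UMIs, the correlation with the early-gene sum in library 3 was 0.457 for Rhob and 0.298 for Rgs2, and in library 2 it was 0.115 and 0.123. Removing the 51 cells with a shared barcode left the 6 counts of 2-fold differences as they were. No paired analysis was possible because the matrix carries no replicate numbers and each group is 1 library. Library 1, with 1343055 UMIs in all, limits what can be said of Gem and Rrad there.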

Other observations

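Cells with many UMIs of one gene were looked at after the values were seen. In library 3, 33 of 3322 cells held at least 5 Gem UMIs before thinning, and they carried 19.0% of all its UMIs there, with up to 18 in a cell. In library 2 there was 1 such cell, with 7 UMIs. The 33 cells had a median depth of 6397 UMIs. Compared with the other cells of library 3, they had 1.44 times the level of Rgs1 (1.21 to 1.71), while Rgs2 gave 1.06 (0.944 to 1.18), Rhob 1.11 (0.995 to 1.23) and Rrad 1.10 (0.599 to 1.85). Their microglia genes were level with the rest, at 1.01 for P2ry12 and 1.04 for Tmem119. These intervals cover counting error only. Rgs1 varied between thinned cells of library 3 beyond that, at a variance over mean of 1.74, so its interval over 33 cells is too narrow.

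Rgs1 gave a similar picture on a larger scale. In library 3, 467 cells held at least 5 Rgs1 UMIs before thinning and 784 held none, at median depths of 6444 and 5041 UMIs. Gem was 1.87 times higher in the former (1.53 to 2.29), Rgs2 1.27 times (1.22 to 1.32) and Rhob 1.24 times (1.19 to 1.28), whereas Rgs10 gave 0.985 (0.940 to 1.03), Rgs19 0.991 (0.882 to 1.11) and Rrad 1.05 (0.860 to 1.27). In library 2, 23 cells held at least 5 Rgs1 UMIs, and Rgs2, at 0.968 (0.780 to 1.19), and Rhob, at 1.16 (0.930 to 1.43), did not differ there beyond counting error from the 2585 cells with none. The part of depth in these differences was not tested.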
